A study of Mus musculus with 24 samples.

Results

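The genes described here encode proteins of the synaptic vesicle and of the machinery that fuses vesicles with the plasma membrane. They were chosen by symbol alone, as the genes named for synaptotagmins, syntaxins, Munc18 and other syntaxin-binding proteins, VAMPs, synapsins, complexins, Snap proteins, Rab3 and SV2 (Sv2b and Sv2c). The rule found 61 of the 38924 genes listed in the files. They were 17 synaptotagmins, 15 syntaxins, 6 VAMPs, 5 syntaxin-binding genes, 5 Snap-named genes, 4 Rab3 genes, 4 complexins, 3 synapsins and 2 SV2 genes. Because the rule reads names and no measured value, it also takes in relatives that work away from the synapse, such as the Golgi syntaxin Stx5a, the endoplasmic reticulum syntaxin Stx18 and the endosomal Vamp8.

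Ribosome-associated mRNA was measured in 24 spinal cords of mice aged 8 weeks on the B6.CgxB6.129 background, 6 in each of 4 groups. In this method, called RiboTag, Cre recombinase makes a cell build its ribosomes with HA-tagged Rpl22, and these ribosomes are recovered, mRNA included, by an HA antibody. All 24 mice carried the tagged allele on 1 chromosome (Rpl+/-). Mice with Cre had it from the choline acetyltransferase locus (Chat+/-), and mice without Cre (Chat+/+) gave the background of the pulldown. C201R mice were heterozygous (C201R+/-) for a dominant change in Gars, the gene of glycyl-tRNA synthetase, and wild-type mice were C201R+/+. The 4 genotypes were therefore Rpl+/-;Chat+/-;C201R+/-, Rpl+/-;Chat+/-;C201R+/+, Rpl+/-;Chat+/+;C201R+/- and Rpl+/-;Chat+/+;C201R+/+. The Chat locus is active in cholinergic cells, which include motor neurons and also other cholinergic neurons of the cord, so the pulldown is not of motor neurons alone. In a pulldown from whole tissue, fewer cells of a type and less RNA per cell cannot be told apart.

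As background, a vesicle fuses when the vesicle SNARE (a VAMP) zips together with the plasma membrane SNAREs (a syntaxin and Snap25). Munc18 proteins hold syntaxin and template the assembly, complexins clamp and then promote it, and synaptotagmins of the fast class sense the calcium that triggers release. Synapsins tether vesicles in the reserve pool, Rab3 proteins are small GTPases that mark vesicles for docking, and SV2 proteins are vesicle transporters that also serve as receptors of botulinum neurotoxin A. Each family has isoforms that differ between neuron types: Vamp1, Syt2 and Cplx1 are known as the isoforms of fast synapses of the brainstem, spinal cord and neuromuscular junction, while Vamp2, Syt1 and Cplx2 dominate in the forebrain. Vamp3, Snap23, Stxbp2 and Stx4 serve secretion in many cells outside neurons.

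The libraries held 8898845 to 28294972 expected counts. Levels are given as counts per 1000000 (CPM) scaled by TMM over all 24 libraries, and levels of different genes are compared only after division by gene length (CPM per kb). The cholinergic identity of the pulldowns was checked with 5 markers, Chat, the choline transporter Slc5a7, Mnx1, Isl1 and Prph. Their summed level had a median of 804 CPM in wild type and 883 CPM in C201R with Cre, against 53.2 and 40.4 CPM without Cre. Summed over 6 oligodendrocyte markers, the medians were 642 and 611 CPM with Cre against 5964 and 6554 CPM without it, and over 6 astrocyte markers 182 and 162 CPM against 1833 and 2176 CPM. RNA of glia was thus lower with Cre but not absent.

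Among the pulldowns with Cre, C201R mouse 14003-1 and wild-type mouse 14701-9 stood apart. They had the highest shares of mitochondrial transcripts and of Gm26924, to which ribosomal RNA is assigned, in their groups. They also had the lowest share of counts in the 61 genes. Left without those transcripts, the 61 genes held 2.31% of the counts of mouse 14003-1 and 2.26% of those of mouse 14701-9. The group means were 3.24 ± 0.51% in C201R and 3.75 ± 0.757% in wild type with Cre, and 1.08 ± 0.37% and 1.18 ± 0.369% without Cre (SD, n = 6 each). Results that rest on these 2 libraries are therefore given with and without them. A high Gm26924 share was not limited to them. C201R mice 14003-4 and 14701-5 had 36.9% and 32.9%, above the 30.8% of mouse 14701-9. With Cre, the median share was 26.9% in C201R (8.01 to 43.3%) and 10.7% in wild type (7.45 to 30.8%). The genotypes compared with Cre thus also differed in this share.

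The report turns on 4 genes whose balance with a sister isoform differed between genotypes: Vamp1, Cplx1, Cplx2 and Rab3b. Their promoter sequences are shown here because the isoform results below turn on these genes, and for the complexins both members of the pair are shown. The partners Vamp2 and Rab3a enter the same ratios, but their sequences are not shown. Each line holds the 250 bases just before a transcription start, from RefSeq (GRCm38.p6), 5′ to 3′ on the strand of the gene. Capitals mark an E-box core (CAGCTG) or a GC box (GGGCGGG, or CCCGCCC when it lies on the opposite strand).
Vamp1, chr6:125215331-125215580, plus strand: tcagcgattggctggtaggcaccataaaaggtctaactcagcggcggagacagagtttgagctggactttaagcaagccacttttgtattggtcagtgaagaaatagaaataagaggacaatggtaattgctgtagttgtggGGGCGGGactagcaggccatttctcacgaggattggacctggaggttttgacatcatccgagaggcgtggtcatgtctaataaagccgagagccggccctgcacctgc
Cplx1, chr5:108550028-108550277, minus strand: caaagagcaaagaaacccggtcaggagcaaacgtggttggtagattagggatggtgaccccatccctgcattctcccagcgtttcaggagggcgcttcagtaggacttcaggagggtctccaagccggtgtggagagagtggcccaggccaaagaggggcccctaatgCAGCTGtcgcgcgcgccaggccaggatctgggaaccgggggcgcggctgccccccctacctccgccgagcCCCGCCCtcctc
Cplx2, chr13:54302306-54302555, plus strand: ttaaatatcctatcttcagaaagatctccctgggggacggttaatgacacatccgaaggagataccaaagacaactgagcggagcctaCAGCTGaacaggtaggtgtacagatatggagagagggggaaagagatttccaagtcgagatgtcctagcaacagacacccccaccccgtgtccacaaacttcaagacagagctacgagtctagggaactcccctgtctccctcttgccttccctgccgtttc
Rab3b, chr4:108878820-108879069, plus strand: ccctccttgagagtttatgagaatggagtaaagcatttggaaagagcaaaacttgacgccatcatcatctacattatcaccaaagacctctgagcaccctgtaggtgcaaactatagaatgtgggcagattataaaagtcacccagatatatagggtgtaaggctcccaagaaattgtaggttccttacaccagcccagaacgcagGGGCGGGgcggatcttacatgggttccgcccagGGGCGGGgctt
Vamp1 held 1 GC box, Cplx1 held 1 GC box and 1 E-box, Cplx2 held 1 E-box and Rab3b held 2 GC boxes. Neither the cAMP response element (TGACGTCA) nor the ATF4 response element (TGATGNAA) was found in these 4 windows. Searched on both strands over the same 250 bases, the E-box was in 13% of all 32851 promoters of the table and in 26.6% of the 64 promoters that belonged to 48 of the 61 genes. The GC box was in 23.4% and 42.2%, the cAMP response element in 1.5% and 1.6%, and the ATF4 response element in 3.5% and 1.6%. None of the 4 motifs overlaps another by its letters in these windows, and a match is a description of the sequence, not a binding site.

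With Cre, each core family was led by a single isoform or a few. Per length, Snap25, the plasma membrane SNARE cut by botulinum neurotoxin A, was by far the highest of all members, at 8465 ± 1947 CPM per kb in wild type and 8004 ± 1127 CPM per kb in C201R (SD, n = 6). Vamp1 followed with 773.7 ± 46.2 and 648.2 ± 120.4 CPM per kb, and Cplx1 with 542 ± 23.5 and 506.5 ± 35 CPM per kb. The leading Rab3 gene was Rab3a (210.5 ± 41.7 and 286 ± 74.5 CPM per kb) and the leading synapsin Syn1 (113.1 ± 11.2 and 81.5 ± 26.1). Sv2c and Sv2b were level in wild type, at 62.4 ± 12.3 and 59.9 ± 21 CPM per kb, which is within the spread of either. Snap25, Vamp1, Cplx1, Rab3a and Syn1 also led their families without Cre. In wild type without Cre their mean shares of the family total per length were 97.2%, 48.4%, 87.2%, 48.2% and 72.3%. Being the leading isoform is thus not particular to the cholinergic pulldown.

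The synaptotagmin with the highest level was not a fast calcium sensor. Syt11, which lacks calcium binding, stood at 141.1 ± 17.6 CPM per kb in wild type and 118.1 ± 11 CPM per kb in C201R, followed by Syt4 (90.1 ± 8.26 and 103 ± 20.9). Of the sensors, Syt2 had 63.1 ± 16.8 and 55.5 ± 15.3 CPM per kb, and Syt1 had 14.6 ± 2.78 and 17.6 ± 2.79. Syt3, a sensor of high calcium affinity, had 48.9 ± 5.72 and 36.1 ± 4.39 CPM per kb. Syt11 was the highest synaptotagmin without Cre as well, at means of 63.5 CPM per kb in wild type and 62.5 CPM per kb in C201R. At the other end, Syt8, Cplx3, Cplx4 and Stx11 passed the filter on low counts in no comparison. Cplx4 had 1 count over all 6 wild-type pulldowns with Cre and 0 over those of C201R, and Syt8 had 3 and 1.

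**Figure D1:**
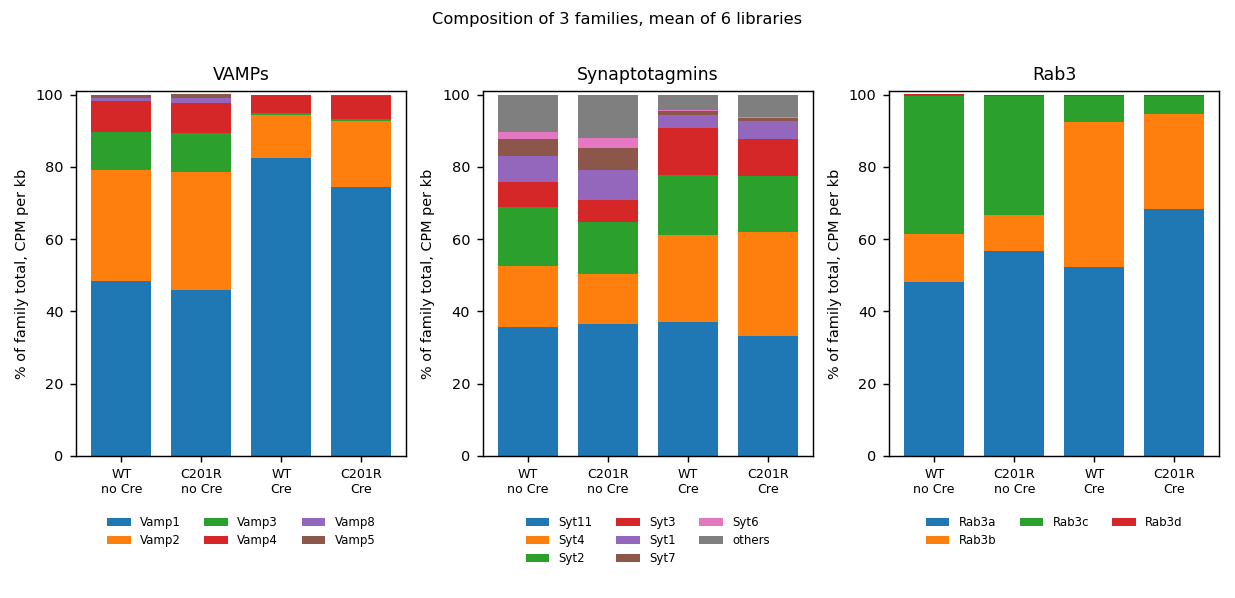
Share of each isoform in its family's summed level (CPM per kb, mean of 6 libraries) for the VAMPs, synaptotagmins and Rab3 genes in the 4 groups. With Cre, Vamp1 took 82.5% of the VAMP total in wild type and 74.5% in C201R, and Rab3b took 40.2% and 26.3% of the Rab3 total.

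The shares of some isoforms in their families differed in range between the groups. In wild type with Cre, Vamp1 took 80.1 to 84.2% of the summed VAMP level per length, and in C201R 73.2 to 75.7%, so the ranges of the 6 libraries did not meet. Without Cre its share was 44.4 to 62% and 41.6 to 50.6%. Vamp2 made up most of the remainder, with 11.9 ± 2.18% in wild type and 18.2 ± 2.52% in C201R with Cre. Among the Rab3 genes, Rab3b took 33.4 to 44.4% in wild type and 21.3 to 31.7% in C201R with Cre, again without overlap, and 13.2 ± 5.35% and 9.87 ± 4.4% without Cre. Syt3 took 12.2 to 14% of the synaptotagmin total in wild type and 9.98 to 10.3% in C201R with Cre. These isoforms were picked from the shares of all 61 members, and how often a share separates the genotypes was not counted. As single genes, Vamp1 and Syt3 were not called between genotypes and their levels overlapped. The shares were not tested.

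Cre against no Cre asks which members are higher in the cholinergic pulldown than in the background of a pulldown without Cre. All 24 libraries are pulldowns, so the changes are not measured against whole cord. Without Cre, mitochondrial transcripts held 42.05 to 55.5% of counts in wild type and 35.2 to 49.6% in C201R. With Cre they held 1.24 to 17.1% and 3.025 to 15.8%. In wild type, 56 of the 61 genes passed the filter. Of these, 24 were higher, 21 were lower and 11 were not called (adjusted p under 0.05). Over all 14264 genes tested, 27.7% were called higher and 32.8% lower, 60.6% together. In C201R, 56 members passed, 27 were higher, 12 lower and 17 not called, against 30.5% higher and 26.3% lower of all 14335 genes, 56.8% together. The median log2 change of the members tested was 0.391 in wild type and 0.684 in C201R, and that of all genes -0.0966 and 0.0646. Members that passed the filter only through the group where they are high had to differ, so these counts do not describe all 61.

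The 2 enrichments share no library. Set side by side, 23 members were higher in both genotypes, 12 were lower in both, 0 were called in opposite directions and 7 were called in neither. The split depends on scaling. When libraries were scaled by their totals alone, the median of all genes moved to 0.839 in wild type and 0.644 in C201R. The members then split into 31 higher and 7 lower in wild type, against 48.2% and 17.1% of all genes (65.4% together), and 29 higher and 5 lower in C201R, against 39.5% and 15.9% (55.4% together). Of the called members, 7 turned direction in wild type under that scaling (Stxbp5, Stxbp4, Rab3c, Cplx2, Stx16, Syn3 and Stx17) and 1 in C201R (Cplx2). Changes below are on the TMM scale, on which the median of all genes was -0.0966 in wild type and 0.0646 in C201R.

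**Figure D2:**
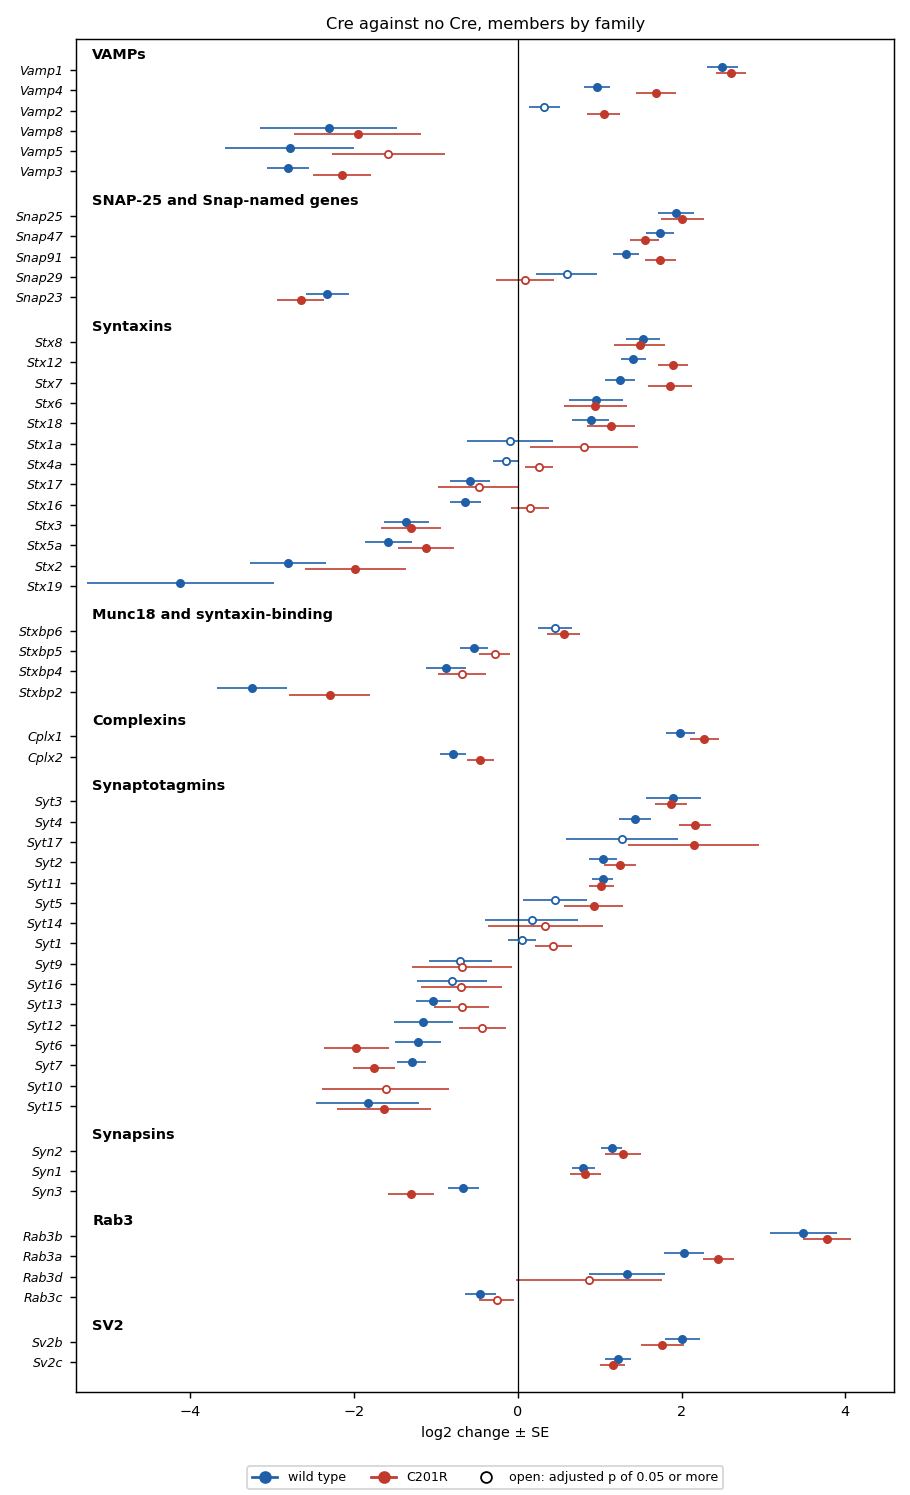
Log2 change ± SE between pulldowns with and without Cre for the members shown, grouped by family, in wild type (blue) and C201R (red); open points have an adjusted p of 0.05 or more. The neuronal isoforms Vamp1 and Snap25 lie to the right of 0, and Vamp3, Snap23 and Stxbp2 to the left.

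Within the VAMP family, isoforms went in opposite directions. Vamp1 had 1814, 2026 and 2175 CPM (lowest, median, highest) in wild type with Cre and 222, 301 and 528 CPM without it. The C201R values were 1404, 1587 and 2196 CPM with Cre and 227, 287 and 338 CPM without it. Every pulldown with Cre thus lay above every one without. The log2 change was 2.50 ± 0.19 in wild type (SE, edgeR adjusted p = 4.67e-08) and 2.60 ± 0.18 in C201R (adjusted p = 7.65e-09), a 5.64-fold and 6.07-fold difference. Vamp2, the forebrain isoform, had a log2 change of 0.32 ± 0.19 in wild type, which was not called (adjusted p = 0.158), and was higher by 1.05 ± 0.20 in C201R (adjusted p = 0.000271). The difference between these 2 enrichments did not pass the interaction test (0.53 ± 0.27, adjusted p = 0.571).

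Vamp3, the VAMP of general secretion and recycling endosomes, went the other way. It had 4.42, 6 and 11.2 CPM with Cre and 29.8, 37.8 and 49.3 CPM without it in wild type, and 4.45, 6.8 and 17.2 CPM against 23.1, 38.7 and 50.5 CPM in C201R. No library with Cre reached the level of a library without it. Its log2 change was -2.81 ± 0.25 in wild type and -2.15 ± 0.36 in C201R. Vamp4, a VAMP of the trans-Golgi network, was higher by 0.97 ± 0.16 and 1.69 ± 0.25, and Vamp8 was lower in both genotypes. Vamp8 did not pass the filter in the comparison with Cre, so it entered through the groups without Cre, where it is high. Its call held in 12 of 21 alternatives in wild type and 12 of 22 in C201R. Vamp5 was lower in wild type (-2.78 ± 0.79) and not called in C201R (-1.58 ± 0.69, adjusted p = 0.058).

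Among the target SNAREs, Snap25 had 7479, 13350 and 15580 CPM in wild type with Cre, where mouse 14701-9 gave the lowest value, and 2195, 2781 and 4887 CPM without Cre. In C201R the values were 10100, 11710 and 14580 CPM with Cre and 2188, 2738 and 5095 CPM without it. The groups did not overlap in either genotype, and the log2 changes were 1.93 ± 0.22 and 2.01 ± 0.26. Snap23, which pairs with syntaxins in non-neuronal secretion, was lower, with log2 changes of -2.33 ± 0.27 and -2.65 ± 0.29, and again did not overlap. Snap47 and the clathrin assembly gene Snap91 were higher in both genotypes, by 1.74 ± 0.17 and 1.55 ± 0.18, and by 1.32 ± 0.16 and 1.74 ± 0.19. Snap29 was called in neither.

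Of the syntaxins tested, 6 of 14 were higher and 6 lower in wild type, and 6 of 13 higher and 3 lower in C201R, against 27.7% and 32.8% of all genes in wild type and 30.5% and 26.3% in C201R. Stx1a, a presynaptic syntaxin, stayed between 0 and 3.59 CPM in all 24 libraries and was called in neither genotype. The endosomal syntaxins Stx7, Stx8 and Stx12 were higher in both genotypes, with changes between 1.24 and 1.90, and so were Stx6 and Stx18. The Stx6 call in C201R held in only 7 of 22 alternatives. Stx2 (-2.81 ± 0.46 and -1.99 ± 0.62), Stx3 (-1.36 ± 0.28 and -1.31 ± 0.37) and Stx5a (-1.58 ± 0.29 and -1.12 ± 0.34) were lower in both, and Stx4a was not called (-0.14 ± 0.15 and 0.25 ± 0.17).

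Among the syntaxin-binding genes, Stxbp2, the Munc18 isoform of immune and epithelial secretion, fell by 3.24 and 2.30 on the log2 scale (SE 0.43 and 0.49). The tomosyn gene Stxbp5, whose protein inhibits SNARE assembly, was lower in wild type (-0.54 ± 0.17) and not called in C201R (-0.28 ± 0.19), and both values changed sign under library totals.

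The complexins split within the family. Cplx1 had 1040, 1111 and 1157 CPM with Cre and 186, 223 and 380 CPM without it in wild type, and 930, 1054 and 1110 CPM against 174, 202 and 284 CPM in C201R. The groups were far apart, with log2 changes of 1.99 ± 0.18 (adjusted p = 1.87e-07) and 2.28 ± 0.18 (adjusted p = 2.06e-08). Cplx2 had 46.6, 51 and 71.3 CPM with Cre and 71.1, 82.9 and 103.9 CPM without it in wild type, and 56.9, 68 and 76.2 CPM against 75.4, 93.4 and 116.4 CPM in C201R. Its log2 changes were -0.79 ± 0.16 and -0.46 ± 0.17, and these became 0.13 and 0.09 under library totals. The ratio Cplx1/Cplx2, which scaling does not touch, is given below.

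Among the synaptotagmins, 4 of 15 tested were higher and 5 lower in wild type, and 6 of 16 higher and 3 lower in C201R. Of all genes 27.7% were higher and 32.8% lower in wild type, so the wild-type shares were near the background, and 30.5% and 26.3% in C201R. Syt2, the fast calcium sensor of motor nerve terminals, had 205, 455 and 508 CPM with Cre and 147, 198 and 244 CPM without it in wild type, and 230.1, 396 and 489 CPM against 141, 155 and 219 CPM in C201R. Without mouse 14701-9 the wild-type groups would not meet, since the other 5 libraries with Cre had at least 419 CPM. Its log2 changes were 1.04 ± 0.17 and 1.24 ± 0.20. Syt1 was called in neither genotype (0.05 ± 0.17 and 0.44 ± 0.23), with medians of 56.5 and 66.1 CPM with Cre and 51.9 and 58.8 CPM without it. Syt9, another fast sensor, was also not called (-0.70 ± 0.38 and -0.68 ± 0.61). Under library totals Syt1 was called higher in wild type (1.02, edgeR adjusted p = 0.0021) and in C201R (1.05, edgeR adjusted p = 0.0176). The median of all genes was then 0.839 and 0.644.

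Syt4 and Syt11, close relatives that differ from the fast sensors in their calcium-binding residues, were higher in both genotypes (1.44 ± 0.19 and 2.16 ± 0.19 for Syt4, 1.04 ± 0.13 and 1.02 ± 0.15 for Syt11), and so was Syt3 (1.90 ± 0.33 and 1.87 ± 0.20). Syt7, the slow sensor of asynchronous release and facilitation, was lower in both. It had 16.4, 23.1 and 26.6 CPM with Cre and 35.3, 51.9 and 55.3 CPM without it in wild type, and 8.94, 15.7 and 29.3 CPM against 36.1, 67.6 and 77.2 CPM in C201R. The groups did not overlap, and the log2 changes were -1.30 ± 0.18 and -1.76 ± 0.26. Syt6 and Syt15 were also lower in both genotypes. Syt17 was called higher in C201R only (2.15 ± 0.80), at a median of 6.36 CPM with Cre, and its difference between the enrichments was not called. Syt17 did not pass the filter in the comparison without Cre. It therefore entered this enrichment through the group with Cre, where it is high. The call held in 13 of 22 alternatives. The value was 3.46 without C201R mouse 14003-3, which had 7.29 CPM without Cre, and 1.58 and not called without mouse 14003-2.

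Rab3b showed the largest rise of all members. It had 150.5, 163 and 190.3 CPM in wild type with Cre and 4.34, 11.3 and 37.1 CPM without it, and 93.6, 106 and 135 CPM against 4.66, 7.28 and 15.1 CPM in C201R. The log2 change was 3.49 ± 0.40 in wild type (11.2-fold) and 3.78 ± 0.29 in C201R (13.7-fold). Rab3a, the most abundant Rab3 of synapses, had 202, 254 and 353 CPM against 36, 44.2 and 95.4 CPM in wild type, and 233, 378 and 443 CPM against 40.2, 60.6 and 71.7 CPM in C201R, with changes of 2.03 ± 0.24 and 2.45 ± 0.19. Neither gene overlapped between pulldowns with and without Cre. Rab3c was lower in wild type (-0.46 ± 0.19, edgeR adjusted p = 0.0443) and not called in C201R (-0.26 ± 0.21). The wild-type call held in only 5 of 22 alternatives. Rab3c was positive in both genotypes under library totals, at 0.47 and 0.37.

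Syn1 and Syn2 were higher in both genotypes, by 0.80 ± 0.14 and 0.82 ± 0.19 and by 1.14 ± 0.13 and 1.28 ± 0.22, and Syn3 was lower (-0.66 ± 0.19 and -1.30 ± 0.29). Sv2b had 103, 351 and 394 CPM with Cre and 61.2, 68.9 and 82.3 CPM without it in wild type, and 44.3, 175 and 229 CPM against 34.2, 59.6 and 77.3 CPM in C201R. The wild-type groups did not overlap, while in C201R the lowest library with Cre, mouse 14003-1, fell within the range of those without Cre. Its log2 changes were 2.01 ± 0.21 and 1.77 ± 0.26, and Sv2c was higher by 1.22 ± 0.16 and 1.16 ± 0.15.

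Counted over all members tested, 22 in wild type had every library with Cre above every library without it and 7 had every library below, against 20.6% and 14.6% of all genes tested. In C201R the counts were 19 and 5, against 19.1% and 14.2%. The lower sets were Stxbp2, Snap23, Syn3, Syt13, Syt7, Stx2 and Vamp3 in wild type, and Snap23, Syt6, Syt7, Stx3 and Vamp3 in C201R.

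**Figure D3:**
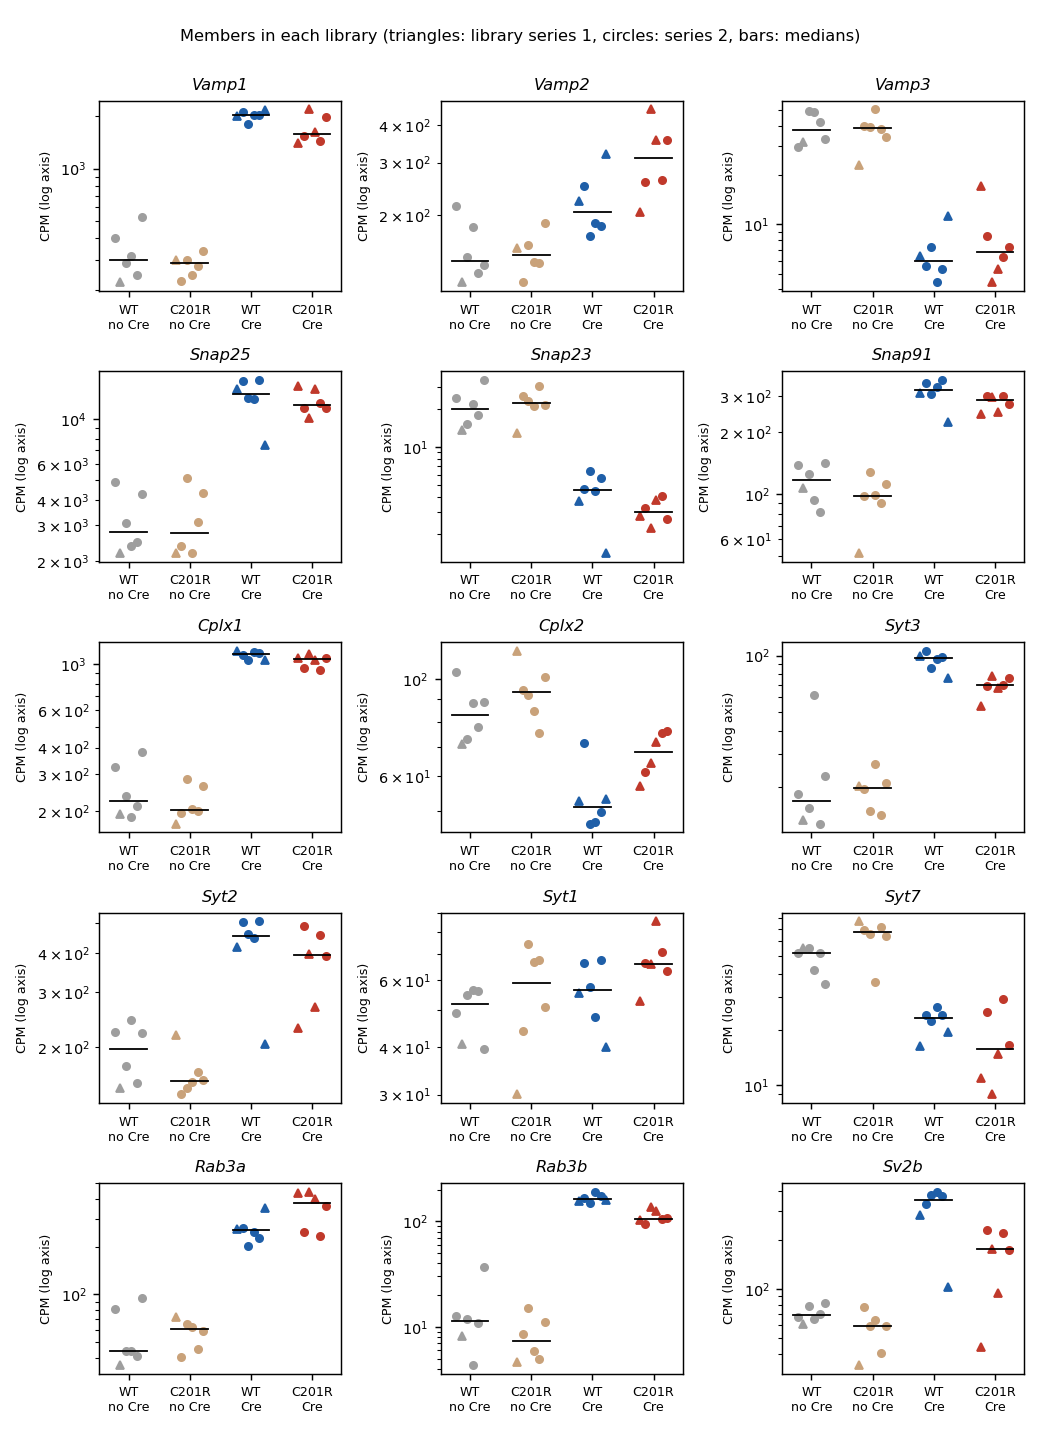
CPM (log axis) of 15 members in each library of the 4 groups, with medians as bars, triangles for library series 1 and circles for series 2. Rab3b lies at 150.5 to 190.3 CPM in wild type and 93.6 to 135 CPM in C201R with Cre, and Vamp3 and Snap23 are lower with Cre in every library.

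C201R against wild type with Cre asks what the mutation changes on the ribosomes of cholinergic cells. Of 55 members tested, 1 was called: Rab3b, which was lower in C201R. Over all 14634 genes, 2.29% were called higher and 1.82% lower, together 4.11%, so the members' count was not above the background. The median log2 change of the members was -0.02 and that of all genes -0.00565. At an unadjusted p under 0.05 there were 15 members, beside 2687 of the 14634 genes.

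The 6 wild-type libraries with Cre had 150.5, 163 and 190.3 CPM of Rab3b, and the 6 C201R libraries had 93.6, 106 and 135 CPM. Every C201R library was below every wild-type one, which held for 1.32% of all genes tested and for no other member. The log2 change was -0.59 ± 0.12 (edgeR adjusted p = 0.0125), a 1.5-fold lower level. Of 22 alternatives, 3 lost the call. These were library totals (-0.83 ± 0.29, adjusted p = 0.364), leaving out C201R mouse 14703-4 (-0.57 ± 0.14, adjusted p = 0.0721), and the leading digits of the mouse number as a replicate block (-0.66 ± 0.13, adjusted p = 0.08). Within library series 2 alone (3 C201R and 4 wild-type libraries) the change was -0.74 ± 0.11 (adjusted p = 0.000542). Series 1 held 3 and 2 libraries and was not fitted alone. Without Cre, Rab3b had a log2 change of -0.75 ± 0.39 at medians of 11.3 and 7.28 CPM, which was not called.

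Other members had differences that did not pass the test, some of them, such as Sv2b and Syt17, of a larger size than that of Rab3b. Sv2b was lower in C201R with a log2 difference of -0.84 ± 0.28 (adjusted p = 0.113), with 44.3 to 229 CPM against 103 to 394 CPM. The lowest value of each genotype came from mice 14003-1 and 14701-9. Syt3 had -0.41 ± 0.12 (adjusted p = 0.0718), with 54.1, 69.7 and 78.1 CPM in C201R and 75.7, 97.1 and 106 CPM in wild type, so the groups overlapped at their edges. Vamp2 had 0.47 ± 0.18 (adjusted p = 0.17), with 205, 310 and 453 CPM in C201R and 170, 205 and 320 CPM in wild type. Syt17 had 0.79 ± 0.27, Cplx2 0.36 ± 0.14, Rab3a 0.35 ± 0.14 and Syn1 -0.43 ± 0.16, with adjusted p from 0.128 to 0.181.

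For the most abundant members the differences were small beside their errors or not called. The log2 differences were -0.04 ± 0.17 for Snap25, -0.10 ± 0.09 for Cplx1, -0.08 ± 0.17 for Syt2, -0.09 ± 0.14 for Sv2c, -0.12 ± 0.11 for Snap91 and -0.26 ± 0.12 for Vamp1, none of them called. Syt11 had -0.22 ± 0.11, also not called.

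The count rests on the 2 libraries that stood apart. Without mice 14003-1 and 14701-9, 10 members were called, 4 higher (Vamp2, Syt5, Syt12 and Syt17) and 6 lower, among them Rab3b, Sv2b, Syt3 and Snap29. The background rose as well, to 6.5% higher and 6.79% lower of 14672 genes, so 10 of 55 members stand beside 13.3% of all genes. There Vamp2 was higher by 0.67 ± 0.14 (adjusted p = 0.00629), Sv2b had -0.87 ± 0.15 (adjusted p = 0.00123), Syt3 -0.41 ± 0.10 (adjusted p = 0.0164) and Rab3b -0.59 ± 0.12 (adjusted p = 0.00431). DESeq2 on all 12 libraries called 4 members, Rab3b, Syt3 and Sv2b lower and Syt17 higher, against 4.97% higher and 4.22% lower of all genes, 9.18% together. Library series 2 alone called 7, Vamp2 and Syt17 higher and Rab3b, Rab3d, Sv2b, Syt3 and Snap29 lower, against 3.59% higher and 5.38% lower of all genes, 8.97% together.

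**Figure D4:**
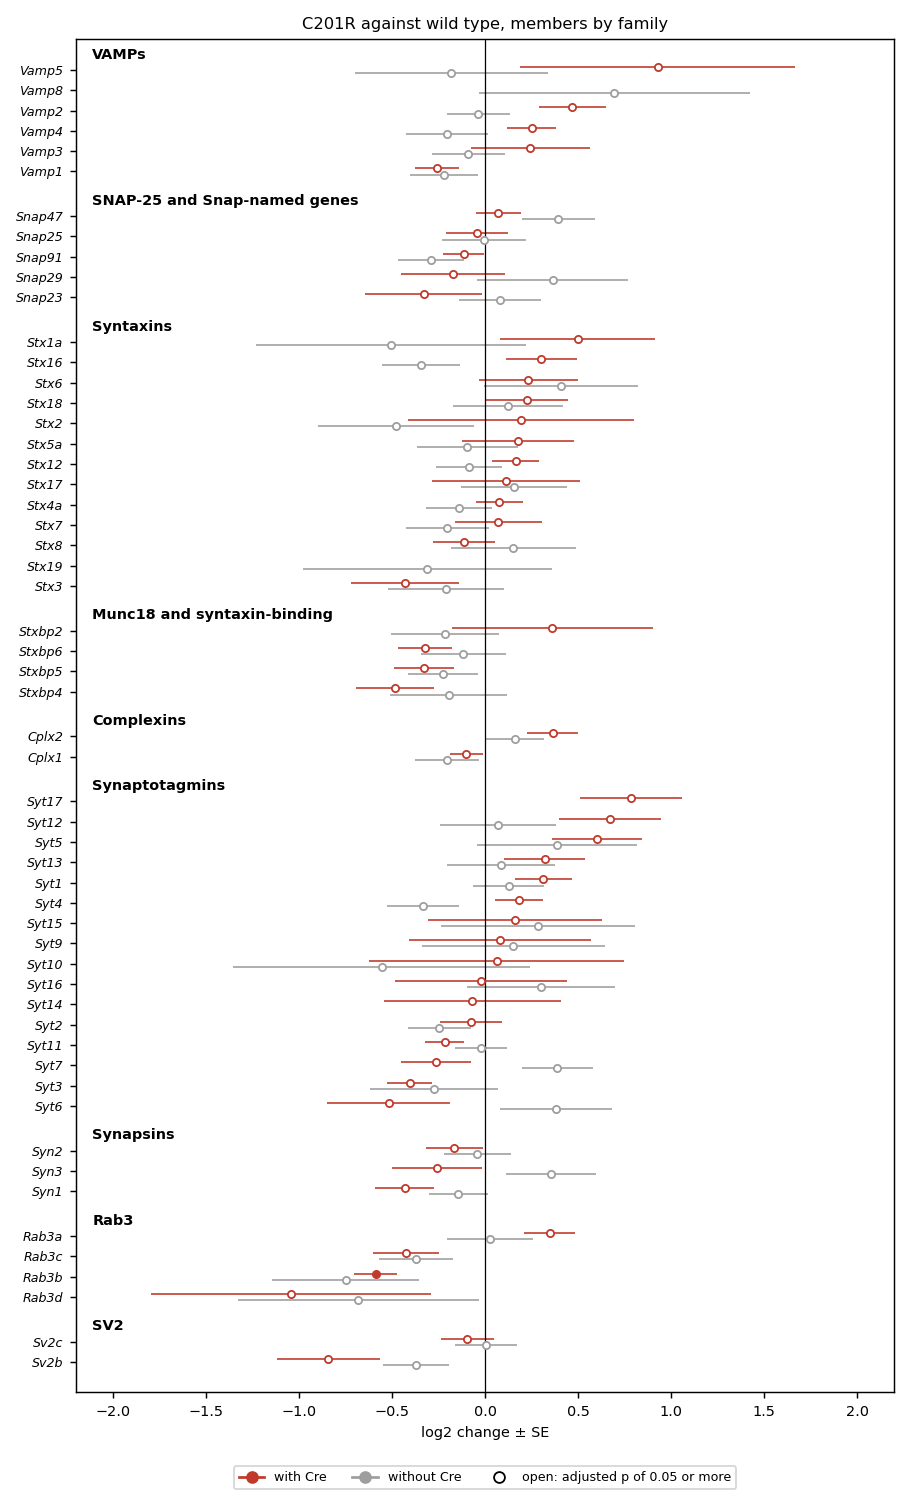
Log2 change ± SE between C201R and wild type for the members shown, with Cre (red) and without Cre (grey); filled points have an adjusted p under 0.05. Rab3b with Cre, at -0.59 ± 0.12, is the only filled point.

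The balance between sister isoforms was then measured as a ratio within each library, which does not depend on how libraries are scaled. Of 10 ratios, 3 differed between C201R and wild type with Cre by an exact two-sided permutation test over the 924 splits of 6 against 6 libraries, adjusted over the 40 tests of 10 ratios in 4 comparisons. The smallest p that such a test can give is 0.00216, or 0.00722 after adjustment here.

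The log2 ratio of Vamp1 to Vamp2 per length ran from 2.40 to 3.10 in wild type and from 1.83 to 2.41 in C201R. The ranges crossed only through C201R mouse 14003-1 and wild-type mouse 14701-9. The means were 2.85 ± 0.28 and 2.10 ± 0.21 (SD, n = 6 each), a difference of -0.76 (exact permutation p = 0.00433, adjusted p = 0.0108). As single genes, Vamp2 had a log2 difference of 0.47 ± 0.18 and Vamp1 one of -0.26 ± 0.12, neither of them called. The larger part of the shift thus came from Vamp2. Both genotypes kept several times more Vamp1 than Vamp2, and without Cre the means were 0.61 ± 0.44 and 0.45 ± 0.07.

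The log2 ratio of Rab3a to Rab3b ran from 0.13 to 0.90 in wild type and from 0.82 to 1.76 in C201R with Cre, with a small overlap. The means were 0.37 ± 0.30 and 1.31 ± 0.32 (SD, n = 6 each), a difference of 0.94 (exact permutation p = 0.00433, adjusted p = 0.0108). Both sides of the ratio contributed in sign, Rab3b lower and Rab3a higher in C201R, although only Rab3b was called as a single gene. Without Cre the means were 2.03 ± 0.69 and 2.66 ± 0.73.

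The log2 ratio of Cplx1 to Cplx2 ran from 5.18 to 5.83 in wild type and from 4.86 to 5.45 in C201R with Cre, with overlap. The means were 5.61 ± 0.23 and 5.16 ± 0.21 (SD, n = 6 each), a difference of -0.45 (exact permutation p = 0.0108, adjusted p = 0.024). As single genes, Cplx2 had a log2 difference of 0.36 ± 0.14 and Cplx1 one of -0.10 ± 0.09, neither of them called. Cplx1 outweighed Cplx2 in all 24 libraries. Without Cre the means were 2.80 ± 0.34 and 2.45 ± 0.37.

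With labels exchanged only within library series, these 3 ratios had adjusted permutation p of 0.0143, 0.0137 and 0.026. Over the 30 alternatives run on the ratios, each of the 3 was called in 29. Those 30 include leaving out each of the 24 libraries in turn. Leaving out a library without Cre left the 12 libraries tested here unchanged, so it could move only the adjustment. The exception was library series 2 alone, with 3 C201R and 4 wild-type libraries. There the differences were -0.84 for Vamp1/Vamp2 and 0.93 for Rab3a/Rab3b (exact permutation, adjusted p = 0.0571 each). For Cplx1/Cplx2 the difference was -0.58 (exact permutation, adjusted p = 0.132). In that series every C201R library lay below every wild-type one for Vamp1/Vamp2, and above every one for Rab3a/Rab3b. So few libraries allow no smaller unadjusted p than these 2 ratios had. For Cplx1/Cplx2 the groups overlapped. Of the other ratios, Snap25/Snap23 differed by 0.55 (exact permutation, adjusted p = 0.0606), Syt2/Syt1 by -0.54 (0.0618), Sv2c/Sv2b by 1.03 (0.063) and Syn1/Syn2 by -0.33 (0.0902). All 4 of these fell below 0.05 when labels were exchanged within series. Vamp2/Vamp3 passed neither test.

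**Figure D5:**
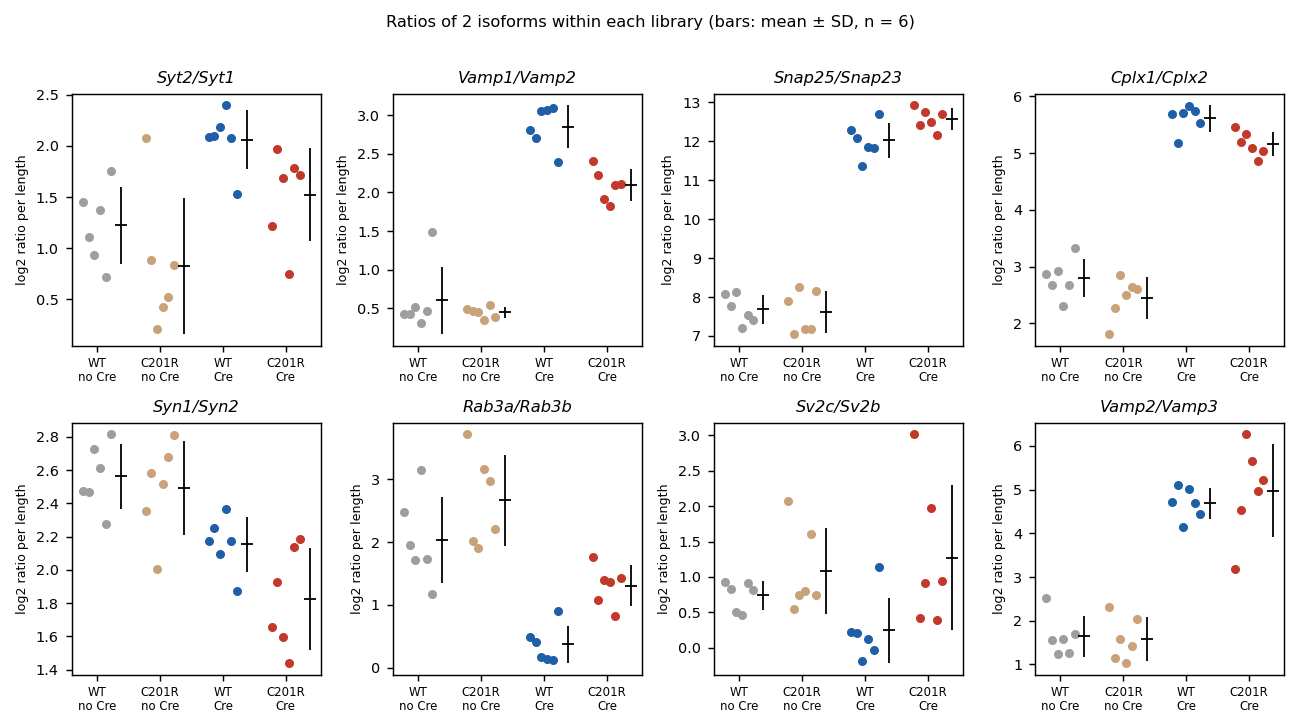
Log2 ratio of 2 isoforms per length in each library for 8 pairs, with the mean ± SD of 6 libraries beside each group. Between the groups with Cre, Vamp1/Vamp2 falls from 2.85 in wild type to 2.10 in C201R and Rab3a/Rab3b rises from 0.37 to 1.31.

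The same ratios showed how far the cholinergic pulldown differs from the pulldown without Cre. In wild type and C201R, Cre raised Vamp1/Vamp2 by 2.25 and 1.65, Cplx1/Cplx2 by 2.82 and 2.72, Snap25/Snap23 by 4.33 and 4.96, and Vamp2/Vamp3 by 3.05 and 3.39 on the log2 scale. For these 4 ratios all libraries with Cre lay above all without Cre, and the adjusted exact permutation p was 0.00722, the smallest possible. Rab3a/Rab3b was lower with Cre in both genotypes, by -1.66 and -1.36, and Syn1/Syn2 by -0.41 and -0.67. Syt2/Syt1 was higher in wild type by 0.84 (exact permutation, adjusted p = 0.0108) and did not pass in C201R (0.69, adjusted p = 0.11).

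Without Cre, C201R against wild type called 0 of 55 members, as it called 0 of all 14400 genes (0.0%). At an unadjusted p under 0.05 there was 1 member, Sv2b (-0.37 ± 0.18), and 455 genes in all, and DESeq2 called 0 members. No member separated the 2 groups completely, against 0.118% of genes higher and 0.0694% lower. None of the 10 ratios differed.

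An interaction over all 24 libraries tested whether the C201R difference was of another size with Cre than without. It called 0 of 57 members, against 0.13% of 16109 genes (0.0993% higher and 0.031% lower), and DESeq2 called 0 as well. At an unadjusted p under 0.05 there were 3 members, Syt7 (-0.71 ± 0.32), Stx16 (0.65 ± 0.29) and Syt4 (0.55 ± 0.26), beside 1462 of the 16109 genes. The genotype change of the ratios was compared in the same way by an exact permutation test over 853776 arrangements. The change with Cre minus that without was -0.60 for Vamp1/Vamp2 (p = 0.0584, adjusted over 10 ratios 0.309), 0.31 for Rab3a/Rab3b (permutation p = 0.582) and -0.10 for Cplx1/Cplx2 (permutation p = 0.733). The changes seen with Cre are therefore not shown to be particular to the cholinergic pulldown.

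The levels of other cell types' markers stand beside the genotype comparison. Summed over 6 markers of other spinal neurons, the pulldowns with Cre had 103 to 148 CPM in wild type and 135 to 191 CPM in C201R, with a positive log2 change for 6 of 6 (median 0.352) and 0 called. The microglia markers summed to 12.5 to 25.7 and 18 to 33.7 CPM. The part of these in the Rab3b, Vamp2 and Cplx2 values was not tested. The cholinergic markers summed to 511 to 938 CPM in wild type and 675 to 982 CPM in C201R, with 0 of 5 called between genotypes. Their log2 change was positive for 5 of 5 (median 0.218). Of the microglia markers 3 of 4 tested were positive (median 0.63), and of the endothelial markers 4 of 6 (median 0.207). By contrast, 5 of 6 oligodendrocyte markers (median -0.119) and 4 of 6 astrocyte markers (median -0.194) were negative. None of these was called.

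Further genes of the vesicle cycle were read from a fixed list of 48. With Cre, C201R against wild type called 4 of 46 tested, 2 higher and 2 lower, against 2.29% higher and 1.82% lower of all genes (4.11% together). The other higher gene is not reported here. Clta, a clathrin light chain, was higher by 0.68 ± 0.11 (adjusted p = 0.00287). Pclo, the active zone scaffold piccolo, had -0.81 ± 0.17 (adjusted p = 0.0144), and Nsf, the ATPase that takes SNARE complexes apart, had -0.44 ± 0.11 (adjusted p = 0.0359). Of 16 priming and active zone genes, 14 had a negative log2 change, with a median of -0.30, but only Pclo was called. The median of all genes was -0.00565, and the share of all genes with a negative change was not counted. Without Cre, 0 of 45 listed genes were called. There the priming and active zone genes also leaned negative, 10 of 15, with a median of -0.102 beside -0.0358 for all genes.

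With Cre against no Cre, 26 of 46 listed genes were higher and 12 lower in wild type (27.7% and 32.8% of all genes), and 27 of 45 were higher and 11 lower in C201R (30.5% and 26.3%). Of 12 endocytosis genes 10 were higher and 1 lower in each genotype, among the higher ones Clta (2.03 ± 0.20 and 2.81 ± 0.20) and the clathrin heavy chain Cltc (1.66 ± 0.14 and 1.93 ± 0.19), and of 6 SNARE disassembly and chaperone genes 5 were higher in wild type and 6 in C201R. The priming and active zone genes split, with 3 higher and 7 lower of 16 in wild type and 4 and 6 of 15 in C201R. The Munc13 isoforms Unc13b and Unc13c were lower (-2.91 ± 0.28 and -2.61 ± 0.35 for Unc13b, -2.39 ± 0.19 and -2.80 ± 0.22 for Unc13c). Slc17a6 and Slc32a1, the vesicular transporters of glutamate and of GABA and glycine, were lower in both genotypes.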

How the data were processed

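Each of the 24 libraries came from 1 numbered mouse, so p-values measure the spread between these mice. Reads were aligned with Bowtie2 2.2.0 and quantified with RSEM 1.2.12, per the submitters' processing notes. Which genome build and annotation were used is not given in the sources used here. The deposited files hold expected counts per gene, which need not be whole, since RSEM divides reads shared by near-identical genes. They also hold TPM values and effective lengths, which the authors' RSEM run computed. TPM was used only in an alternative to the ratios.

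Expected counts were rounded and fitted over all genes with edgeR 4.0.16 (R 4.3.3): filterByExpr, TMM, a term for library series, the robust quasi-likelihood F test and Benjamini-Hochberg adjustment over all genes tested, with calls at an adjusted p under 0.05. Library series are 2 runs of library numbers in the labels, with 7 and 17 libraries. Each pairwise fit used its own 12 libraries. SEs were derived from each log2 change and its F statistic. DESeq2 1.42.0 was an alternative. CPM levels were scaled over all 24 libraries.

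Isoform ratios are log2 ratios of counts plus 0.5, each divided by effective length, tested by exact two-sided permutation. The test of how ratio changes differ with and without Cre was added after the ratios were seen. The scripts were checked on simulated data. The members, lists and tests were chosen with earlier results of these data known. The rule for named genes took a core panel of 26 genes, every called member of the genotype comparisons, the 8 highest and 8 lowest enriched members with a mean of at least 2 CPM, and the leading member of each family. Other members named were chosen after their values were seen. Depth was 8898845 to 28294972 expected counts per library. Some members and listed genes are not reported here, although the counts over all members include them.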

Additional observations from a re-analysis of the deposited data

Results flagged for a closer look

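In 128 sets of 6 libraries (96 of CPM, the others of log2 ratios), 14 had 1 library far from the other 5 by Dixon's criterion. Chance gives about 1 in 20. Wild-type mouse 14701-9 with Cre accounted for 5 of them and C201R mouse 14003-1 with Cre for 2, the same libraries that had the lowest share of counts in these genes.

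In mouse 14701-9, Snap25 was 7479 CPM (12550 to 15580 CPM in the other 5), Syt11 was 412.2 CPM (536.3 to 604.5) and Syt2 was 204.8 CPM (419.1 to 508.2). Its log2 ratio of Syt2 to Syt1 was 1.526 (2.077 to 2.397), and that of Sv2c to Sv2b was 1.135 (-0.1863 to 0.2202). In mouse 14003-1, Syn2 was 41.15 CPM (78.14 to 89.84) and Vamp3 was 17.16 CPM (4.453 to 8.427). The genes flagged as low thus differed between the 2 mice, and in mouse 14003-1 the non-neuronal Vamp3 was high.

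The other such values were scattered. Cplx2 was 71.29 CPM in wild-type mouse 14004-6 with Cre (46.64 to 53.05). Without Cre, wild-type mouse 14702-6 had 37.12 CPM of Rab3b (4.345 to 12.73) and a log2 ratio of Vamp1 to Vamp2 of 1.484 (0.3102 to 0.5161). Wild-type mouse 14004-4 without Cre had a log2 ratio of Vamp2 to Vamp3 of 2.518 (1.228 to 1.7). C201R mouse 14003-2 without Cre had 218.9 CPM of Syt2 (140.6 to 166.3) and a log2 ratio of Syt2 to Syt1 of 2.08 (0.2094 to 0.8876). C201R mouse 14004-7 without Cre had 36.12 CPM of Syt7 (64.32 to 77.15).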

How the results depend on the processing

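Between C201R and wild type with Cre, the count of 1 member called became 0 with library totals, 4 with DESeq2, 7 in library series 2 alone and 10 without mice 14003-1 and 14701-9. Leaving out each library in turn gave 0 to 3 members: 3 without mouse 14003-1, 14701-5 or 14701-9, 2 without 14003-4 and 0 without 14703-4. With the leading digits of the mouse number as a replicate block it was 0. What these digits mark is not stated in the labels. With Cre, the deviations of libraries that share them correlated at -0.0176 to 0.4 (mean 0.154, 4 of 6 pairs over 0.1). For other libraries the mean was -0.00272, with 7 of 30 pairs over 0.1. The main fit did not take the digits as pairs, and these values do not exclude that libraries sharing them resemble each other. The replicate block gave Rab3b -0.66 (edgeR adjusted p = 0.08), 33 members called in the wild-type enrichment and 30 in that of C201R. Leaving out 1 library gave 40 to 46 members in the wild-type enrichment, 33 to 44 in that of C201R, 18 to 25 ratios, and 0 to 0 without Cre and in the interaction. Library totals turned 11 members in wild type and 6 in C201R, among them Cplx2 (0.1319), Rab3c (0.4652), Stx1a (0.7697), Stx4a (0.7729) and Syt9 (0.2269) in wild type, and Cplx2 (0.09165) and Rab3c (0.3684) in C201R. In wild type, no filter reversed Stx1a (0.08895) and Stx4a (0.04721), the replicate block Stx1a (0.3136), the Gm26924 share as a covariate Vamp2 (-0.06996), and leaving out 1 library moved Stx1a between -0.2652 and 0.2354. In C201R, the covariate reversed Rab3c (0.2289) and the replicate block Syt9 (0.07428). Of the values of single genes and ratios over all alternatives, 1762 kept direction and side of the threshold, 63 lost the call, 22 gained it and 17 reversed. The cause was not tested. Cplx3, Cplx4, Stx11 and Syt8 passed the filter on low counts in no comparison.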
